A study of Saccharomyces cerevisiae with 8 samples.

Results

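The Tfg1-HA strain is the tagged parent in which the largest subunit of TFIIF carries an epitope tag, and its mRNA levels were set against those of W303a, the laboratory strain of Saccharomyces cerevisiae from which it was made. The members of the comparison are the 2 Tfg1-HA and the 2 W303a libraries, 4 of the 8 in the series, and all 5909 of the 6120 counted genes that passed a filter on low counts. W303a is a MATa strain with the marker alleles ura3-52, his3-11 and leu2-3_112 as well as trp1Δ2, ade2-1 and can1-100, and its genotype is labelled WT. Tfg1-HA is labelled as W303a with Tfg1-HA, and the strain list of the study gives it as TFG1-6XHA::K. lactis *TRP1*, that is, a run of HA epitopes at the C-terminus of Tfg1 made from its own locus, followed by a *TRP1* gene of Kluyveromyces lactis as the selection marker. The other strains of the series were *ubc9-6*, which carries a mutant gene for the SUMO-conjugating enzyme Ubc9 together with *TRP1*, and Tfg1-K60,61R-HA, which has the same tag, the named substitutions and an inadvertent N462Q change. Every strain was harvested in mid-log growth at 30°C in SC medium, and 2 separate samples of each were sequenced after enrichment of polyadenylated RNA. Since Tfg1-HA differs from W303a by the tag, by the marker and by whatever else separates both isolates, these differences cannot be told apart. The sample titles name strain and replicate only and do not say whether the strains were grown and prepared together.

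TFIIF is a general transcription factor that travels with RNA polymerase II (RNAPII) into the promoter complex, where it takes part in start site choice and in the first steps of elongation. Budding yeast growing on glucose ferments it to ethanol, makes ribosomes at a high rate and keeps genes for respiration, for reserve carbohydrates and for general stress defence at low levels. A separate signalling pathway, the PHO pathway, sets the level of genes for phosphate uptake and phosphate storage through the transcription factor Pho4, the cyclin-dependent kinase Pho85 with its cyclin Pho80, and the kinase inhibitor Pho81.

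The libraries held between 26674458 and 34614232 counts, with TMM normalization factors between 0.977 and 1.03 over the whole series. Between replicates, the log2 difference had an SD across genes of 0.159 in W303a and 0.175 in Tfg1-HA, which is more than counting error gives. It was 0.139 in *ubc9-6* and 0.292 in Tfg1-K60,61R-HA, and the libraries of both also entered the estimate of the spread. Levels are stated as counts per 1000000 (CPM) scaled to the normalized library size, always with replicate 1 before replicate 2. A gene was called where the Benjamini-Hochberg adjusted p of edgeR's quasi-likelihood test was under 0.05, and every adjusted p in the text comes from that test. No external RNA standard was counted, so a change shared by all mRNAs would not show in these values.

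The strain label could be checked only in part, because the tag and the K. lactis gene are not among the counted genes. The tag is joined to the end of the coding region of *TFG1*, which lies at chrVII:869922-869981 on the plus strand of sacCer3 (RefSeq), where the reference reads as follows, with the stop codon of the untagged gene in capitals.
TFG1: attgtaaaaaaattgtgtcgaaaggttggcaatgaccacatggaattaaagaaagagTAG
*TFG1* itself had 172 and 167 CPM in Tfg1-HA and 196 and 200.6 CPM in W303a, a log2 fold change of −0.23 (SE 0.04, adjusted p = 0.00313) with no overlap between the strains. *TFG2*, which encodes the second subunit of TFIIF, had 128 and 131 CPM against 129 and 130 CPM (log2 fold change −0.00, adjusted p = 0.956), and *TAF14*, the gene of its smallest subunit, was not called either (0.07, adjusted p = 0.185). *UBC9* had 81.6 and 81.7 CPM in Tfg1-HA, 74.1 and 75.6 CPM in W303a and 184 and 189.5 CPM in *ubc9-6*, and its small difference between Tfg1-HA and W303a (0.12, adjusted p = 0.0373) lost its call under 7 of 17 alternative settings. The native *TRP1* gene had 18.2 and 18 CPM against 13.9 and 14.8 CPM (0.33, adjusted p = 0.00206), far below the 351 and 366 CPM of *ubc9-6*. Among the other marker genes, *ADE2*, *URA3* and *HIS3* were not called, whereas *LEU2* fell from 282 and 283 CPM to 176 and 183 CPM (−0.65, adjusted p = 0.000212) and *CAN1*, the arginine permease, fell by 0.39 on the log2 scale.

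In the levels of *MFA1*, *AGA2* and *MF(ALPHA)1*, both strains had the pattern of a MATa strain. The a-factor gene *MFA1* had 108 and 118 CPM in Tfg1-HA and 63.5 and 63.5 CPM in W303a, and *AGA2*, the a-agglutinin subunit, had 46 and 46 CPM against 26.3 and 26.3 CPM. Each was higher in Tfg1-HA (log2 fold changes of 0.83 and 0.81), with no overlap. In contrast, *STE2*, the α-factor receptor, fell by 0.27 and *STE6*, the a-factor exporter, fell by 0.30 on the log2 scale, the former losing its call in 3 of the 4 fits that left out a library and the latter without W303a replicate 2. The α-specific *MF(ALPHA)1* was near the bottom of the range in both strains, with 0.414 and 0.626 CPM in Tfg1-HA and 1.87 and 2.83 CPM in W303a, and was lower in Tfg1-HA (−2.18, SE 0.28, adjusted p = 0.000602). Of the remaining a-cell markers, *MFA2* changed by 0.23 and *BAR1* and *ASG7* each by −0.11 on the log2 scale. The remaining α-cell markers changed by −0.86 (*STE3*), −0.25 (*SAG1*) and −0.19 (*MF(ALPHA)2*). Markers of haploid cells changed by 0.38 (*RME1*), 0.31 (*STE18*), 0.07 (*FUS3*), −0.04 (*STE5*), −0.09 (*GPA1*) and −0.11 (*STE4*). The a-specific and pheromone response genes had 18.5% of members higher and 22.2% lower, near the 21.5% of all genes in each direction. In the list of a-specific and pheromone response genes, 5 of 27 tested members were higher and 6 lower, and when a library was left out 2 or 3 were higher, and 2 were lower without W303a replicate 2 and 3 without W303a replicate 1.

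Across the genome, 1270 genes (21.5% of those tested) were higher and 1272 genes (21.5%) lower in Tfg1-HA, so that 43.0% of the tested genes were called in all. Most of the differences were small, and 2112 of the 2542 called genes differed by less than 1.5-fold. Of the rest, 302 genes (5.11% of those tested) were higher and 128 (2.17%) lower by at least 1.5-fold, and 109 and 34 by at least 2-fold. In all 302 and all 128, both libraries of one strain lay apart from both of the other, which was also so for 2243 genes in the upward and 2323 in the downward direction over the whole table. This separation was a condition for naming the highest and lowest genes and the called members of each list. For those genes a lack of overlap therefore adds no support. In a fit without the Tfg1-K60,61R-HA libraries, whose replicates differed most, 1513 genes were higher and 1521 lower. The counts also rested in part on the number of libraries. They fell to 781 higher and 779 lower without W303a replicate 2 and to 840 higher and 801 lower without Tfg1-HA replicate 2, with a range of 262 to 316 higher and 107 to 129 lower for the changes of at least 1.5-fold when each library was left out in turn. A near-identical copy, a Ty element or a place within 20 kb of the outermost gene of a chromosome marked 16 of the 302 and 21 of the 128. Reads of such genes can be harder to place, and *IMD2*, *GIT1*, *HXK1* and *PHO89* are among them for their place near a chromosome end.

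**Figure D1:**
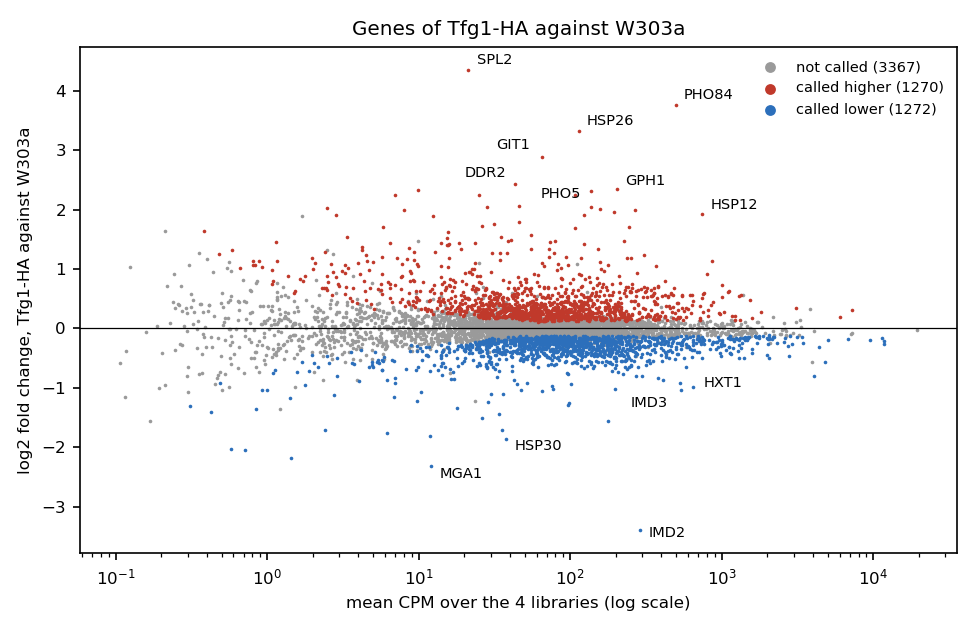
Log2 fold change of each of the 5909 tested genes in Tfg1-HA against W303a, plotted over its mean CPM in the 4 libraries on a log axis, with the 1270 genes called higher in red and the 1272 called lower in blue. The phosphate genes SPL2 and PHO84 and the heat shock gene HSP26 stand at the top, and IMD2 stands alone at the bottom.

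To describe the change by function, 58 lists of genes were compiled and each was set beside the whole table, in which 1270 genes were higher, 1272 lower and the median log2 fold change was −0.00. The lists with the highest medians were general stress response (0.92), phosphate regulon (0.90), trehalose and glycogen (0.70), respiratory chain and ATP synthase (0.61) and TCA cycle (0.60). In untagged *ubc9-6* against W303a, which shares the W303a libraries, their medians in the same order were 0.81, −0.18, 0.37, 0.28 and 0.31. In Tfg1-HA against *ubc9-6* they were 0.07, 0.99, 0.31, 0.33 and 0.29, so most of the stress list's rise was also present in *ubc9-6*. At the other end, ribosome biogenesis factors had a median of −0.39 and genes under nitrogen catabolite repression one of −0.34. Members of a list share regulators, so these counts describe the lists and are not tests of them. A list with shares near 21.5% in each direction did not stand out from all genes tested.

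**Figure D2:**
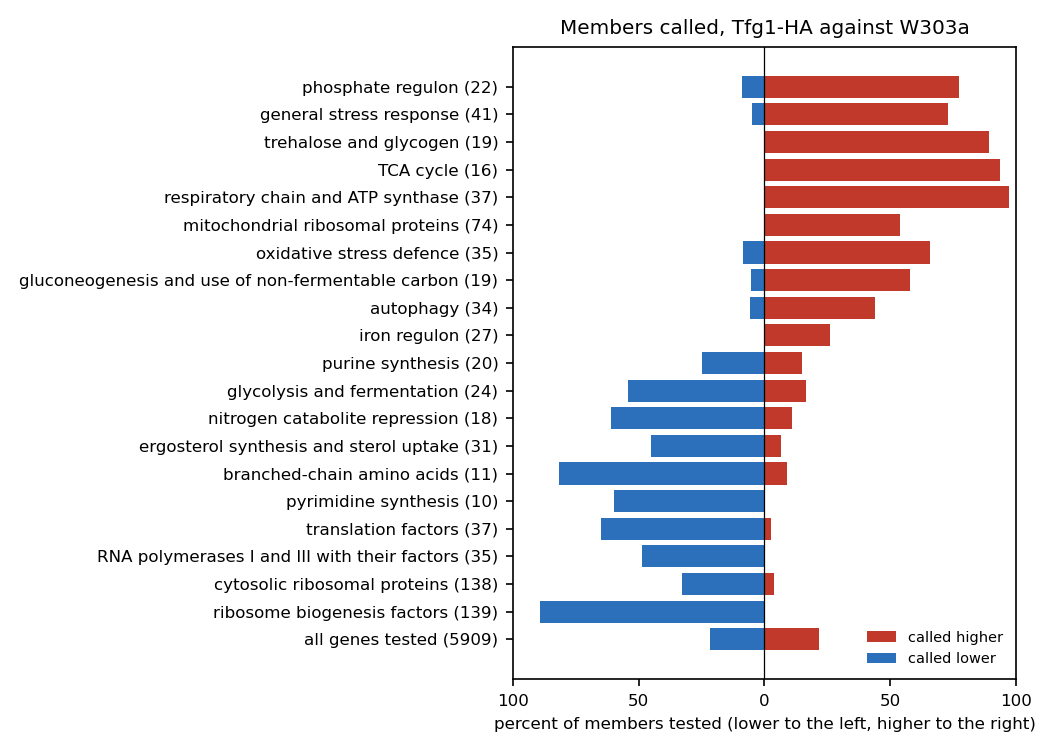
Percentage of members called higher (red, to the right) and lower (blue, to the left) in Tfg1-HA against W303a in 20 functional lists, with the number of members tested in brackets and all genes tested at the bottom. Respiratory chain, TCA cycle and reserve carbohydrate genes were nearly all higher, and 124 of 139 ribosome biogenesis genes were lower.

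The 2 largest increases were in the phosphate regulon, of which 17 of 22 members were higher, 11 of them by at least 1.5-fold, and 2 were lower. *SPL2*, which encodes an inhibitor of low-affinity phosphate uptake, rose from 1.80 and 2.16 CPM in W303a to 53.1 and 28.3 CPM in Tfg1-HA, a 20.4-fold difference (log2 fold change 4.35, SE 0.39, adjusted p = 0.00013). *PHO84*, the high-affinity phosphate transporter, rose from 56.4 and 80.4 CPM to 1225 and 626 CPM, a 13.5-fold difference (3.75, SE 0.32, adjusted p = 0.000102). The strains did not overlap for either gene, as the naming rule required, and in Tfg1-HA replicate 1 stood well above replicate 2. *GIT1*, a transporter of glycerophosphodiesters, had 138 and 91.3 CPM against 15.1 and 15.8 CPM (2.89, adjusted p = 3.46e-05). *PHO5*, the secreted acid phosphatase, had 286 and 169 CPM against 42 and 49.7 CPM (2.31, adjusted p = 0.000142). These again showed no overlap, by the same rule, and the same order of the tagged replicates. The VTC complex makes polyphosphate, the storage form of phosphate, at the vacuole, and *VTC3* rose from 107 and 122 CPM to 471 and 280 CPM (1.71), with *VTC1* (1.47), *VTC4* (1.23) and *VTC2* (0.34) also higher. Smaller increases were found for the vacuolar alkaline phosphatase *PHO8* (0.57) and the ER protein *PHO86* (0.53), which Pho84 needs to leave the ER. The sodium-coupled transporter *PHO89* had 23.8 and 9.38 CPM against 2.64 and 3.84 CPM (2.33, SE 0.75, adjusted p = 0.0354), and its call was lost with limma voom and without Tfg1-HA replicate 1, W303a replicate 1 or W303a replicate 2. The 2 members that fell were the low-affinity transporters *PHO90*, from 140.1 and 139.9 CPM to 100.9 and 92.9 CPM (−0.53, adjusted p = 0.000154), and *PHO87* (−0.16, adjusted p = 0.0477). Without W303a replicate 1 the number of members called higher was 12, and it was between 13 and 18 under the other alternatives. In each fit that left out a library 1 member was lower.

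Among the regulators of the PHO pathway, *PHO81* rose from 73.5 and 74.7 CPM to 143 and 109 CPM (0.76, adjusted p = 0.000808). *PHO85* was 1.12-fold higher (adjusted p = 0.0122), a call lost without Tfg1-HA replicate 2 or W303a replicate 2. The factors *PHO4* (−0.11, adjusted p = 0.101) and *PHO2* (0.03, adjusted p = 0.656) and the cyclin *PHO80* (−0.06, adjusted p = 0.485) were not called. In *ubc9-6*, *PHO84* had 43.6 and 40.9 CPM, *PHO5* had 34.0 and 35.7 CPM and *PHO81* had 77.1 and 74.2 CPM, and *PHO84* was higher in the tagged strain than in that strain too (log2 fold change of Tfg1-HA against *ubc9-6* 4.45, adjusted p = 0.000123).

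Pho4 binds the core CACGTG, and 68.2% of the 22 promoters of the phosphate regulon held it on either strand within 500 bases before the start codon, against 6.32% of all 5758 promoters read. Since the core is its own reverse complement, both strands give the same matches, and Cbf1 and Tye7 also bind it. The stretches of the *PHO84* promoter at chrXIII:26194-26251 and of the *PHO5* promoter at chrII:431184-431219, both on the minus strand of sacCer3 (RefSeq), show where it lay, with the core in capitals.
PHO84: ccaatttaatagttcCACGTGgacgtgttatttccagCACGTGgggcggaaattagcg
PHO5: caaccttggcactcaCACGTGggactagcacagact
The *PHO84* matches began 436 bases before the start codon, with 408 bases between the last of them and the codon. That of *PHO5* began 253 bases before its start codon, with 247 bases in between. A match is a description of the letters only, and no binding was measured here.

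Genes of the general stress response, which Msn2 and Msn4 induce under many stresses, were the list with the highest median, with 30 of 41 members higher, 25 of them by at least 1.5-fold, and 2 lower. *HSP26*, a small heat shock protein, rose 10-fold, from 20.6 and 20.7 CPM to 184 and 229 CPM (log2 fold change 3.32, SE 0.21, adjusted p = 2.55e-05). *DDR2*, a small protein induced by many stresses, had 77.6 and 67.8 CPM against 12.6 and 14.2 CPM (2.43, adjusted p = 0.00029). *HSP12*, a membrane-associated protein that is among the most strongly stress-induced of this species, had 1254 and 1093 CPM against 298 and 317 CPM (1.93, adjusted p = 5.59e-05). The strains were far apart for all 3 genes. *PHM7*, a membrane protein, rose from 11 and 11 CPM to 45.1 and 45.8 CPM (2.05), the cytosolic catalase *CTT1* rose from 53.9 and 47.5 CPM to 158 and 168 CPM (1.69), and the aldehyde dehydrogenase gene *ALD3* rose 3.38-fold. The members without a call included *YGP1*, with 484 and 507 CPM against 532 and 487 CPM, and *YRO2*, with 355 and 381 CPM against 382 and 366 CPM. Leaving out a library in turn left 27 to 29 members higher.

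*HSP30*, a plasma membrane protein that restrains the proton pump Pma1, moved the other way, from 64.6 and 54.4 CPM in W303a to 14.2 and 18.4 CPM in Tfg1-HA (−1.87, SE 0.15, adjusted p = 9.04e-05). The other lower member, the cell wall protein gene *SPI1*, had 20.2 and 23.0 CPM against 36.6 and 30.9 CPM (−0.64, adjusted p = 0.0458) and lost its call under 7 alternatives. *MSN4* was 1.34-fold higher (adjusted p = 0.000849) and *GIS1*, a related zinc finger factor, 1.33-fold higher (adjusted p = 0.00072), while *MSN2* (0.10, adjusted p = 0.109) and the kinase *RIM15* (−0.11, adjusted p = 0.149) were not called.

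Other defence genes moved in part. Chaperone genes had 38.9% of members higher and 25% lower, the latter near the 21.5% of all genes tested. Of 36 chaperone genes, 14 were higher and 9 lower, with a median of 0.00, and the lower ones numbered 3 without Tfg1-HA replicate 2 or without W303a replicate 2. The higher ones included *HSP78*, a mitochondrial disaggregase, with 344 and 356 CPM against 154 and 153 CPM (1.19, adjusted p = 5.48e-06), and *SSA4*, a stress-inducible HSP70, which rose 2.41-fold. *HSF1*, the heat shock factor gene, was not called (−0.04, adjusted p = 0.467). Of 35 oxidative stress defence genes, 23 were higher and 3 lower, the latter numbering 1 without Tfg1-HA replicate 1 or W303a replicate 1. The sulfiredoxin *SRX1* rose from 1.07 and 0.886 CPM to 4.05 and 3.90 CPM (2.03), the mitochondrial peroxiredoxin *PRX1* rose 2.03-fold (adjusted p = 1.97e-05) and the mitochondrial superoxide dismutase *SOD2* was also higher (0.69).

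Genes for the reserve carbohydrates trehalose and glycogen were nearly all higher, 17 of 19 with none lower, 11 of them by at least 1.5-fold. *GPH1*, which releases glucose from glycogen, rose from 67.9 and 66.1 CPM to 323 and 359 CPM (2.35, SE 0.11, adjusted p = 6.47e-06). *TSL1*, a subunit of the trehalose synthase complex, rose from 56.8 and 50.3 CPM to 208 and 235 CPM (2.05, SE 0.09, adjusted p = 5.48e-06). *PGM2*, the main phosphoglucomutase, rose from 53.9 and 49.7 CPM to 172 and 219 CPM (1.92, adjusted p = 2.55e-05). Both tagged libraries were well above both libraries of W303a in each of these. The glycogen synthase *GSY1* was 3.45-fold and its partner *GSY2* 2.09-fold higher, and the branching enzyme *GLC3* was 2.98-fold higher. The catalytic genes of trehalose synthesis changed less, *TPS1* by 0.47 and *TPS2* by 0.68, and the trehalase *NTH1* was higher by 0.70, so that genes of both synthesis and breakdown rose. In each fit that left out a library, 16 members were higher.

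The stress response element CCCCT, searched on both strands, is the site of Msn2 and Msn4, and it stood in 80.5% of the promoters of the stress list and 78.9% of those of the trehalose and glycogen list, against 34.4% of all promoters. The following stretches are from genes named above, chrII:381536-381723 (HSP26), chrXVI:860934-860999 (GPH1) and chrXIII:70231-70478 (TSL1), all on the plus strand of sacCer3 (RefSeq), with the element in capitals (AGGGG is the same element on the other strand).
HSP26: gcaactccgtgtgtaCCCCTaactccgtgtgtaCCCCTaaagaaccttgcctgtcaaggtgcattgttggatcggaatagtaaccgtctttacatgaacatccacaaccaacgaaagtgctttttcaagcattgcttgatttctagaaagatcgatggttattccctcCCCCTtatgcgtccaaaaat
GPH1: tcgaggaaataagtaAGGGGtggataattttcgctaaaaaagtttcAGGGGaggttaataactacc
TSL1: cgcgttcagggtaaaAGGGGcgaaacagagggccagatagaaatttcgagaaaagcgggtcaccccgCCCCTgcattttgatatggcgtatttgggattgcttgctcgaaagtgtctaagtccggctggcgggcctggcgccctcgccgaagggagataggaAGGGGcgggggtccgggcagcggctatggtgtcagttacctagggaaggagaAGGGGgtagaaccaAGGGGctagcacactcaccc
The element occurred 3 times in the *HSP26* promoter, 2 times in that of *GPH1* and 5 times in that of *TSL1*. Of the 2 lower members of the stress list, the promoter of *HSP30* held 0 matches in the same window and that of *SPI1* held 3.

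Respiration genes were higher almost throughout. Of 37 genes of the respiratory chain and ATP synthase, 36 were higher and none lower, 21 of them by at least 1.5-fold, with a median of 0.61. *CYC7*, the second isoform of cytochrome c, rose from 11.8 and 12.7 CPM to 39.1 and 41.7 CPM (1.72, SE 0.08, adjusted p = 6.54e-06). *INH1*, an inhibitor of the ATP synthase, had 156 and 151 CPM against 83.4 and 81.6 CPM (0.89), and the complex III subunit *QCR10* had 167 and 174 CPM against 94.4 and 93.6 CPM (0.86). Neither overlapped between the strains, which was a condition for naming them. *COX26* was 2.05-fold higher, a call lost without W303a replicate 2. Of 16 TCA cycle genes, 15 were higher and none lower. *SDH2*, the iron-sulfur subunit of succinate dehydrogenase, rose from 154 and 141 CPM to 262 and 281 CPM (0.88, adjusted p = 0.000108), together with *SDH4* (0.84), *SDH3* (0.75) and *SDH1* (0.71), the genes of the other subunits, and with the citrate synthase *CIT1* (0.80). Leaving out a library left 34 or 35 respiratory chain genes and 15 TCA cycle genes called.

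Other mitochondrial genes moved less. For mitochondrial protein import, the share called higher (22.6%) was near the 21.5% of all genes tested. Of 74 mitochondrial ribosomal protein genes, 40 were higher and none lower, but none reached 1.5-fold, their median was 0.19 and the number fell to 14 without W303a replicate 2. Of 31 genes for mitochondrial protein import, 7 were higher, or 3 without Tfg1-HA replicate 2 or W303a replicate 2, and 2 lower. *HAP4*, the regulatory subunit of the activator of respiration genes, was slightly lower, with 203 and 203 CPM against 244 and 230 CPM (−0.22, adjusted p = 0.0461), a call lost under 5 alternatives, whereas *HAP2*, a DNA-binding subunit, rose 1.39-fold (adjusted p = 0.000764).

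Genes for the use of other carbon sources moved in part. Gluconeogenesis and non-fermentable carbon use had a median of 0.40, below its median of 0.64 in *ubc9-6* against W303a. In the list of gluconeogenesis and non-fermentable carbon use, 11 of 19 members were higher and 1 lower, the higher ones numbering between 5 and 8 when a library was left out. In that of galactose, sucrose and maltose use, 2 of 11 were higher (18.2%, against 21.5% of all genes tested) and none lower. *HXK1*, a hexokinase of cells short of glucose, rose from 115 and 100.7 CPM to 387 and 475 CPM (2.00, SE 0.12, adjusted p = 2.1e-05), and *HXK2*, the hexokinase of glucose-grown cells, fell from 1308 and 1347 CPM to 1080.1 and 1023 CPM (−0.34, adjusted p = 0.000488). *ALD4*, the mitochondrial aldehyde dehydrogenase that makes acetate, rose from 62.3 and 62.3 CPM to 268 and 236 CPM (2.02), and *ACH1*, a mitochondrial CoA transferase, rose 2.12-fold. *ADR1*, an activator of genes for ethanol use, rose from 41.0 and 41.1 CPM to 107 and 102 CPM (1.34, adjusted p = 5.48e-06), and *CAT8*, an activator of gluconeogenic genes, rose 1.94-fold (adjusted p = 0.000355). *SIP4*, a further activator of these genes, was not called (0.18, adjusted p = 0.345). Of 14 glycerol and osmolyte genes, 5 were higher (35.7%) and 2 lower (14.3%), against 21.5% of all genes tested in each direction. The glycerol-3-phosphate dehydrogenase of mitochondria, *GUT2*, which uses glycerol, rose 2.08-fold (adjusted p = 6.47e-06). Both steps of glycerol synthesis had isozymes that moved in opposite directions, with the dehydrogenase *GPD1* higher (0.53) and *GPD2* lower (−0.72), and the phosphatase *GPP2* higher (0.59) and *GPP1* lower (−0.50).

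Genes of glucose transport and fermentation moved in both directions. *HXT1*, the low-affinity glucose transporter of cells with ample glucose, fell from 889.9 and 824 CPM to 443 and 422 CPM (−0.99, SE 0.05, adjusted p = 1e-05), and *HXT3*, a second low-affinity transporter, fell by 0.43. The high-affinity transporters *HXT7*, with 166 and 191 CPM against 41.8 and 33.7 CPM, and *HXT6* were higher, but the sequences of these 2 genes are nearly identical and their shares of the reads are uncertain. Of 24 glycolysis and fermentation genes, 4 were higher and 13 lower. *PDC5*, a minor pyruvate decarboxylase, had 47.9 and 68.4 CPM against 160.0 and 119.6 CPM (−1.26, adjusted p = 0.00362), and the alcohol dehydrogenase *ADH5* had 30.8 and 31.7 CPM against 67.0 and 60.8 CPM (−1.03, adjusted p = 0.000222). The abundant members changed little, as for the main pyruvate kinase *CDC19* (−0.19) and the main pyruvate decarboxylase *PDC1* (−0.22). *MTH1*, a co-repressor of glucose transporter genes, was 1.56-fold higher and its relative *STD1* was 1.32-fold lower, and *MIG1*, the glucose repressor, was 1.25-fold higher. Of 12 pentose phosphate genes, 8 were higher and 3 lower, the former numbering 5 without Tfg1-HA replicate 1 or W303a replicate 2.

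Ribosome biogenesis factors had more lower members than any other of the 58 lists, with 124 of 139 members lower, none higher and 16 lower by at least 1.5-fold. *DHR2*, an RNA helicase of small subunit assembly, fell from 52.5 and 51.1 CPM to 33.0 and 29.7 CPM (−0.72, SE 0.07, adjusted p = 0.000135). *NOP4*, a factor of the large subunit, fell from 295 and 289 CPM to 193 and 173 CPM (−0.67, adjusted p = 0.000162), and *SDA1*, which large subunits need for export, fell from 244 and 238 CPM to 159.5 and 144 CPM (−0.67, adjusted p = 0.000148). The strains did not overlap for these genes, which was a condition for naming them. *NOP19* (−0.68) and *ENP2* (−0.67), both of small subunit assembly, fell by nearly as much, while the fibrillarin gene *NOP1* changed less (−0.23). The number of members called lower stayed between 103 and 125 when each library was left out and between 120 and 129 under the other alternatives.

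The rest of the translation machinery fell less. Cytosolic ribosomal protein genes had a median of −0.08, beside 0.02 in Tfg1-K60,61R-HA and −0.12 in *ubc9-6*, each against W303a. Of the 138, 45 were lower (32.6%, against 21.5% of all genes tested) and 5 higher, none by 1.5-fold. The lower ones numbered 11 without W303a replicate 1, 12 without Tfg1-HA replicate 2, 20 without W303a replicate 2 and 24 without the 100 most counted genes, and the higher ones between 0 and 3 when a library was left out. *RPL22B*, a second copy of a large subunit protein gene, had 145 and 144 CPM against 196 and 192 CPM (−0.42, adjusted p = 0.000182). Among genes of RNA polymerases I and III and their factors, 17 of 35 were lower, or 9 without Tfg1-HA replicate 2 and 11 without W303a replicate 2, and the 2 largest subunits of polymerase I, *RPA190* (−0.51) and *RPA135* (−0.46), and the largest of polymerase III, *RPO31* (−0.47), were among them. Of 37 translation factors, 24 were lower and 1 higher, or 15 lower without W303a replicate 2. The elongation factor *YEF3*, which fungi need besides the universal factors, had 4011 and 3767 CPM against 5580.5 and 5870.4 CPM (−0.56, adjusted p = 8.61e-05). *RPG1*, a subunit of initiation factor eIF3, had 467 and 467 CPM against 647 and 665 CPM (−0.49). Of 19 cytosolic tRNA synthetase genes, 14 were lower. The shares called lower were 48.6% for the polymerase I and III list, 64.9% for translation factors and 73.7% for tRNA synthetases. Translation factors and tRNA synthetases had medians of −0.18 and −0.21, and of −0.15 and −0.16 in *ubc9-6* against W303a. In Tfg1-HA against *ubc9-6* both medians were −0.04, so most of their fall was also present in *ubc9-6*. The regulators *IFH1* (−0.41) and *FHL1* (−0.21), which activate ribosomal protein genes, and *TOD6* (−0.54), a repressor of ribosome biogenesis genes, were lower, although the call of *FHL1* was lost in 3 of the 4 fits that left out a library. *DOT6* (−0.10, adjusted p = 0.209) and *STB3* (0.09, adjusted p = 0.183), which act on the same promoters as *TOD6*, were not called.

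Dot6 and Tod6 bind the PAC element GATGAG and Stb3 the RRPE element AAAATTTT. PAC, searched on both strands, stood in 88.5% of the 139 promoters of ribosome biogenesis factors against 27.8% of all promoters, and RRPE, which is its own reverse complement, in 73.4% against 12.7%. The stretches chrXVI:469804-469844 (*NOP4*, plus strand) and chrVII:982193-982244 (*SDA1*, minus strand) of sacCer3 (RefSeq) show matches in capitals, where CTCATC is PAC on the other strand.
NOP4: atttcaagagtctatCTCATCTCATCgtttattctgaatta
SDA1: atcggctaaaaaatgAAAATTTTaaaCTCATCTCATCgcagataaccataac
In *SDA1* both elements lay within 161 bases before the start codon. In *NOP4* PAC occurred 2 times in a stretch that began 120 bases before the start codon, with 109 bases between it and the codon. RRPE had no match in the *NOP4* promoter.

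Guanine nucleotide synthesis held the lowest gene of the comparison. *IMD2*, one of the genes for IMP dehydrogenase, which commits IMP to GTP, fell from 536 and 519.8 CPM in W303a to 49.9 and 50.2 CPM in Tfg1-HA, a 10.5-fold difference (log2 fold change −3.40, SE 0.07, adjusted p = 5.07e-08). The replicates of each strain lay close together. The gene lies near the right end of chromosome VIII. Transcription of *IMD2* is known to follow the supply of guanine nucleotides through the choice of start site, which gene counts do not show. The other IMP dehydrogenase genes fell less, *IMD3* from 716 and 734 CPM to 359.8 and 344 CPM (−1.04, adjusted p = 5.48e-06) and *IMD4* from 712 and 669.8 CPM to 367 and 361 CPM (−0.92, adjusted p = 0.000163). *GUA1*, the GMP synthase, was 1.22-fold lower (adjusted p = 0.00636). The purine gene that rose most was *ADE4*, the first enzyme of the pathway, from 41.5 and 42.8 CPM to 122 and 113 CPM (1.48, adjusted p = 2.75e-05), although the other genes of the shared pathway such as *ADE1* (−0.09), *ADE13* (−0.07) and *ADE17* (0.07) were not called. Over the 20 purine genes, 3 were higher, or 1 when any library was left out, and 5 lower, or 3 without Tfg1-HA replicate 2. The purine shares, 15% higher and 25% lower, lay near the 21.5% of all genes tested in each direction. Of 10 pyrimidine genes, 6 were lower, among them *URA7*, a CTP synthase (−0.53), and *FUR1*, which salvages uracil (−0.43).

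Nitrogen and amino acid genes changed in smaller groups. Of 18 genes under nitrogen catabolite repression, which good nitrogen sources keep low, 11 were lower and 2 higher, or 7 lower without Tfg1-HA replicate 1 or W303a replicate 2 and 1 higher without Tfg1-HA replicate 2 or W303a replicate 2. The ammonium transporter *MEP2* fell from 501 and 475 CPM to 271 and 278 CPM (−0.83, adjusted p = 0.000658), the general amino acid permease *GAP1* fell from 2393 and 2206 CPM to 1572 and 1783 CPM (−0.45, adjusted p = 0.00383), and the GABA permease *UGA4* fell by 0.83. Both genes of arginine breakdown rose, *CAR2*, from 8.21 and 8.91 CPM to 22.7 and 22.9 CPM (1.41), and *CAR1* (0.62). Of 19 amino acid permeases, 6 were higher (31.6%) and 3 lower (15.8%), against 21.5% of all genes tested in each direction. *AGP2*, a plasma membrane protein needed for the uptake of carnitine and polyamines, rose from 17.7 and 18.1 CPM to 49.4 and 54.3 CPM (1.53, adjusted p = 1.17e-05), the proline permease *PUT4* rose 2.28-fold and *DIP5*, which takes up acidic amino acids, rose 1.62-fold. Of 11 genes of branched-chain amino acid synthesis, 9 were lower and 1 higher. *ILV3* was among the lower ones (−0.47), and *ILV6*, the regulatory subunit of acetolactate synthase, was higher (0.54). Their activator *LEU3* was lower (−0.38), as was the marker gene *LEU2*, which is not in this list. The sulfate and methionine list was mixed, with 10 of 29 members higher, or 5 without W303a replicate 2, and 7 lower, or 4 without W303a replicate 1, and its regulator *MET28* was 2.28-fold higher. In the sulfate and methionine list 34.5% were higher and 24.1% lower, the latter near the 21.5% of all genes tested. Of 6 histidine synthesis genes, none was called.

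Metal, lipid and transport genes were among the more variable. The iron regulon had 25.9% of its members called higher, against 21.5% of all genes tested. *FET3*, the multicopper oxidase of high-affinity iron uptake, had 381 and 238 CPM against 85 and 74.6 CPM (1.96, SE 0.41, adjusted p = 0.0055), and its partner, the permease *FTR1*, had 263 and 169.7 CPM against 103 and 95.6 CPM (1.12, adjusted p = 0.0155). Tfg1-HA replicate 1 was the higher of the tagged libraries for both, and the calls were lost without W303a replicate 2, and for *FTR1* also without Tfg1-HA replicate 1 or W303a replicate 1. Over the iron regulon, 7 of 27 members were higher and none lower, or 3 without W303a replicate 2 and 14 or 15 in fits without the Tfg1-K60,61R-HA libraries. *CTR1*, the copper transporter, had 98.1 and 83.0 CPM against 281 and 253 CPM (−1.56, SE 0.43, adjusted p = 0.0197), a call lost when any of the 4 libraries was left out. *INO1*, the first enzyme of inositol synthesis, had 51.2 and 50.9 CPM against 93.5 and 114 CPM (−1.03, adjusted p = 0.0182), a call lost without either Tfg1-HA library or W303a replicate 2, and the inositol transporter *ITR1* fell 1.41-fold (adjusted p = 6.08e-05). Of 31 ergosterol genes, 14 were lower and 2 higher, but 3 were lower without W303a replicate 2, 5 without Tfg1-HA replicate 2 and 7 without Tfg1-HA replicate 1, and 1 was higher in each of the fits that left out a library. The drug transporter gene *QDR2* fell from 38.3 and 39.2 CPM to 12.3 and 14.9 CPM (−1.51, adjusted p = 2.28e-05), *PDR5* fell 1.43-fold, and *AQR1* rose 1.72-fold.

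Other lists had fewer calls or calls in both directions. Some shares lay near the 21.5% of all genes in a single direction only. Examples were the proteasome (22.2% higher, 2.78% lower) and RNAPII with the general factors (9.52% higher, 23.8% lower). Shares were 23.1% higher and 38.5% lower for the SUMO pathway and 3.57% higher and 46.4% lower for nuclear pore genes. For protein glycosylation they were 18.4% higher and 4.08% lower. Of 42 genes of RNAPII and the general factors, 4 were higher and 10 lower, and of 25 Mediator genes 3 were higher and 2 lower, none by 1.5-fold in either list. DESeq2 called no Mediator gene in either direction. Of 36 proteasome genes 8 were higher and 1 lower, of 49 protein glycosylation genes 9 and 2, of 31 DNA replication genes 4 and 8, and of 40 peroxisome and fatty acid oxidation genes 8 and 2. Of the 13 SUMO pathway genes 3 were higher and 5 lower, none by 1.5-fold. These counts depended on each library. When each was left out in turn, RNAPII and the general factors had 1 or 2 members higher and 5 or 6 lower, and Mediator had between 0 and 2 in either direction. The higher members numbered between 2 and 4 for the proteasome, between 4 and 6 for the peroxisome, between 0 and 2 for DNA replication and 0 or 1 for the SUMO pathway. The lower ones numbered between 4 and 7 for DNA replication, between 2 and 4 for the SUMO pathway, between 0 and 3 for protein glycosylation and 1 or 2 for the peroxisome. Autophagy genes numbered 15 higher and 2 lower of 34, or 6 higher without Tfg1-HA replicate 2, with the nucleophagy receptor *ATG39* at 13.3 and 11.5 CPM against 4.89 and 4.81 CPM (1.36, adjusted p = 8.61e-05). Nuclear pore genes numbered 13 lower and 1 higher of 28, or 4 lower without Tfg1-HA replicate 2 or W303a replicate 2. Of 44 cell wall genes 15 were higher and 6 lower (2 without W303a replicate 1), among the higher the mannoprotein *CWP1*, which had 923 and 930.3 CPM against 603 and 624 CPM (0.60, adjusted p = 5.04e-05).

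Not all strong changes belonged to a list, which held 135 of the 302 higher and 42 of the 128 lower genes. *MGA1*, a gene that encodes a protein resembling the heat shock factor, fell from 21.1 and 19.4 CPM to 4.14 and 4.01 CPM (−2.31, SE 0.14, adjusted p = 2.55e-05). *CIP1*, an inhibitor of cyclin-dependent kinases, fell from 146 and 130.3 CPM to 57.2 and 56.2 CPM (−1.28, adjusted p = 0.000179), and *BSC1* (−1.80), *TDA6* (−1.71), *YBR056W-A* (−1.44) and *PRM7* (−1.25) fell as well. Among the genes that rose outside the lists was *YCL048W-A*, from 2.52 and 2.33 CPM to 12.6 and 10.4 CPM (2.24, adjusted p = 0.0004). The following groups were chosen after their values were seen. In the synthesis of NAD from tryptophan, *BNA2* (−1.07), *BNA4* (−0.93) and *BNA5* (−0.91) were lower and 1 of the 7 genes was higher, with 5.38 and 7.93 CPM against 13.3 and 14.6 CPM for *BNA2*, the first enzyme of the pathway. *DBP2*, an RNA helicase, had 312 and 271 CPM against 549 and 511 CPM (−0.86, adjusted p = 0.000139).

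Short non-coding RNAs, most of which carry no poly(A) tail, were also chosen after their values were seen. Of 83 tested, 34 were higher and 2 lower, with a median of 0.48. By at least 1.5-fold, 26 were higher and 1 lower, and these are part of the 302 and 128 genes counted above. *SCR1*, the RNA of the signal recognition particle, had 23.3 and 22.3 CPM against 9.05 and 6.94 CPM (1.52, adjusted p = 0.000109), and *RPR1*, the RNA of RNase P, had 8.72 and 8.96 CPM against 3.25 and 2.21 CPM (1.71). Together these RNAs took 0.0478% and 0.0508% of the counts in Tfg1-HA, against 0.0386% and 0.0359% in W303a and between 0.0408% and 0.0450% in the other strains. Their share moved with the strain in RNA that had been enriched for poly(A) tails, and its part in the results on mRNAs was not tested.

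The other strains of the series show where the tagged strain stood. Against *ubc9-6*, Tfg1-HA had 1135 genes (19.2% of those tested) higher and 1163 (19.7%) lower, and this comparison shares the Tfg1-HA libraries with that against W303a, so the values are set side by side gene by gene. For *IMD2*, *ubc9-6* had 186 and 187 CPM, below W303a and above Tfg1-HA (log2 fold change of Tfg1-HA against *ubc9-6* −1.90, adjusted p = 1.82e-06). *HSP30* had 54.9 and 69.1 CPM in *ubc9-6* and was lower in Tfg1-HA (−1.93, adjusted p = 0.000141). *HSP26* had 133 and 160.0 CPM and *GPH1* 153 and 156 CPM in *ubc9-6*, both above W303a, and Tfg1-HA was higher than *ubc9-6* for *GPH1* (1.14, adjusted p = 0.0002) but was not called for *HSP26* (adjusted p = 0.0597). *ADE4* was higher in *ubc9-6* (153 and 163 CPM) than in Tfg1-HA (−0.43, adjusted p = 0.00659). For *NOP4*, *ubc9-6* had 259 and 241 CPM, between the other strains.

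Tfg1-K60,61R-HA carries the same tag, and its libraries share nothing with those of Tfg1-HA, so it is a second set of samples with the tagged allele, although it also holds the Tfg1 substitutions. *PHO84* had 1459 and 1119 CPM in it, *SPL2* had 84.1 and 52.5 CPM, *HSP26* had 332 and 220.3 CPM, and *IMD2* had 40.9 and 46.6 CPM. *NOP4* had 182 and 172 CPM and *HXT1* had 429.7 and 448 CPM. Between the tagged strains edgeR called 0 genes, with 572 genes at an unadjusted p under 0.05, which does not show that they were alike. The study's own RNA-seq comparison of these strains reported significant differences for a few genes in both directions.

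A comparison that uses none of the libraries of Tfg1-HA or W303a is Tfg1-K60,61R-HA against *ubc9-6*, which called 1348 genes (22.8%) higher and 1344 (22.7%) lower, with the spread still estimated over all 8 libraries. Of the 302 genes at least 1.5-fold higher in Tfg1-HA against W303a, 207 (68.5%) were called higher there and 13 lower. Of the 128 lower genes, 115 (89.8%) were called lower and 1 higher. By at least 1.5-fold in both, 87 genes were higher, which is 28.8% of the 302 and 54.4% of the 160 of the second comparison, and 82 were lower, which is 64.1% of the 128 and 31.5% of the 260. The second comparison also holds the effects of *ubc9-6* and of the Tfg1 substitutions, so the shared genes cannot be assigned to the tag.

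**Figure D3:**
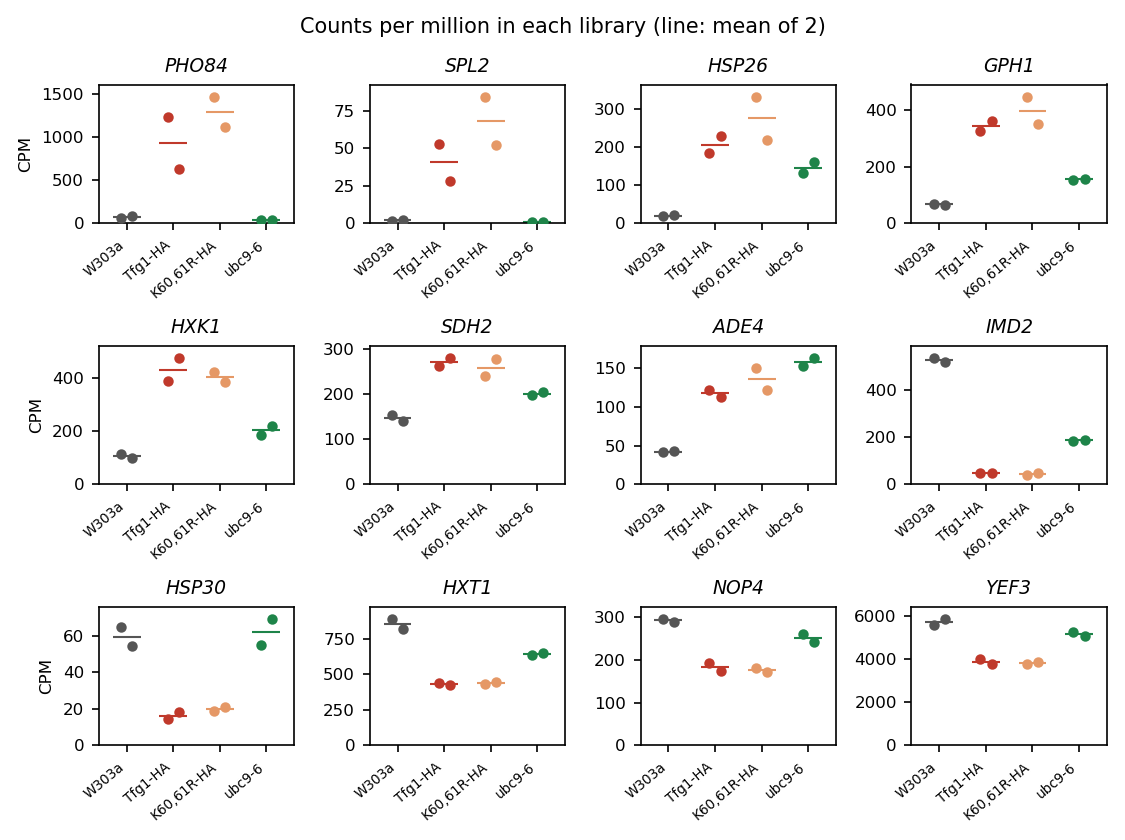
CPM in each library of the 4 strains for 12 genes, with a line at the mean of the 2 libraries and each vertical axis starting at 0. PHO84 and SPL2 are high only in the tagged strains among the 4 shown, HSP26 and GPH1 are also raised in ubc9-6, and IMD2 falls from 528 CPM on average in W303a to 50.1 CPM in Tfg1-HA.

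Promoter letters were also counted over all genes that changed by at least 1.5-fold, in the 500 bases before the start codon. The stress response element CCCCT stood in 62.9% (173 of 275) of the promoters of higher genes, in 33.1% (40 of 121) of those of lower genes and in 34.4% of all promoters, and 2 or more matches stood in 32.7%, 8.26% and 8.27% of them. PAC stood in 20.4% of the higher, 45.5% of the lower and 27.8% of all promoters, and RRPE in 5.82%, 22.3% and 12.7%. The core of the site of the glucose repressor Mig1, CCCCGC on either strand, was found in 17.1% of the higher and 3.31% of the lower promoters against 5.78% of all, and in 43.8% of the 16 TCA cycle promoters. CACGTG was found in 13.5%, 3.31% and 6.32%, and TGCACCC, bound by the iron regulator Aft1, in 5.82%, 0.826% and 2.34%. CCAAT, the element of the Hap complex, was about as frequent in the higher (64%) as in all promoters (63%), although 88.9% of the respiratory chain and 87.5% of the TCA cycle promoters held it. The element of Gcn4 (TGACTC, called GCRE) stood in 12.7% of the higher, 15.7% of the lower and 12.9% of all promoters. The element of Hsf1 (TTCNNGAA, called HSE) stood in 20% of the higher, 24% of the lower and 21.6% of all promoters, and that of Gln3 (GATAAG) in 25.5%, 27.3% and 22.8%. None of these motifs contains another. Neighbouring promoters can share a stretch of DNA. These are counts of letters with no test.

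**Figure D4:**
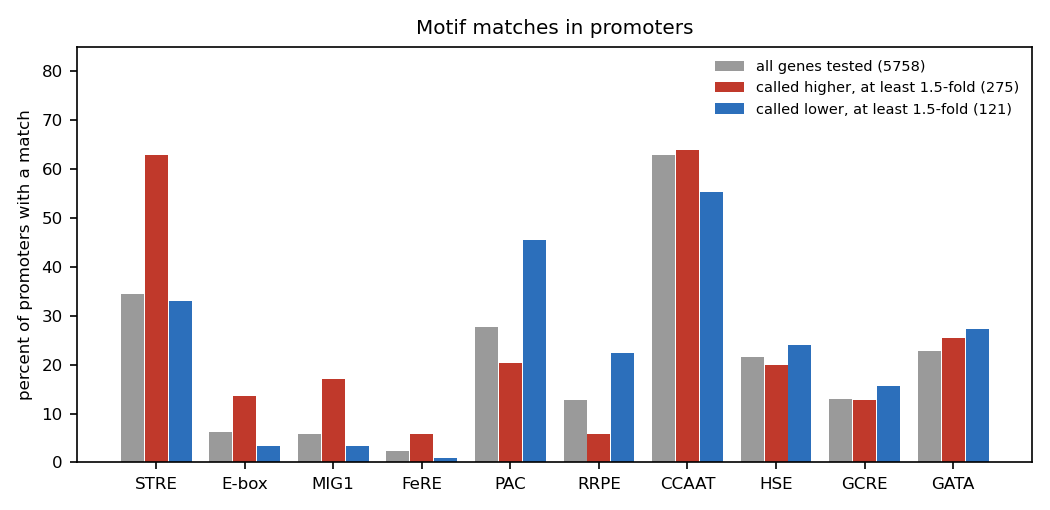
Percentage of promoters (500 bases before the start codon) that hold each motif on either strand, for all 5758 promoters, the 275 of genes at least 1.5-fold higher and the 121 of genes at least 1.5-fold lower in Tfg1-HA against W303a. The stress response element is more frequent among the higher genes (62.9% against 34.4% of all), and PAC and RRPE among the lower genes.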

How the data were processed

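Polyadenylated RNA of 4 yeast strains with 2 libraries each was sequenced by the authors from directional libraries. The deposited counts are raw fragments per gene on exons of sacCer3. The submitters' processing notes name HISAT2 2.1.0, featureCounts from Subread 2.0.0 and edgeR 3.32.1. The stated counting options use no strand information, so reads of overlapping genes on opposite strands cannot be told apart, and near-identical copies are uncertain. Another 2 deposited comparison files hold the authors' own log2 fold changes, p-values and FDR and were not used. No sample column was left without a sample.

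Counts of all 8 libraries were fitted with edgeR 4.0.16 (R 4.3.3) with 1 mean per strain, TMM normalization, filterByExpr (5909 of 6120 genes kept), the quasi-likelihood test and Benjamini-Hochberg adjustment over all genes tested. All strains entered the fit to estimate the spread. The script was tested on simulated data. The replicate number was not used as a block, because same-numbered libraries did not deviate together (correlation 0.0159 between W303a and Tfg1-HA, −0.188 to 0.118 over all pairs of strains). Each p-value sets a strain difference against a spread estimated over all 8 libraries, not only over the 4 compared.

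Named genes are the strain checks, the 15 highest and 15 lowest called genes (mean of at least 50 counts, libraries of the strains apart, no near-identical copy by BLAST 2.17.0), up to 5 called members of each functional list by the same conditions, the lists' regulators and mating type markers. Further members of a list (such as VTC2, NOP1, YGP1, YRO2, CDC19, PDC1, GPP1, PHO87 and the uncalled ADE genes) were added after their values were seen. The members and lists were chosen with earlier results of these data known, and 2 lists were added after seeing the values. Promoters were the 500 bases before the start codon of RefSeq R64 (sacCer3). This gave 5758 promoters, and 96 tested genes without ATG at the listed start were left out. Alternatives used RLE and upper quartile scaling, other filters, the likelihood ratio test, limma 3.58.1 (voom), DESeq2 1.42.0, other sets of libraries or genes, a replicate block, and each library left out.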

Additional observations from a re-analysis of the deposited data

How the results depend on the processing

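Of the 421 named genes, 342 were called and 243 of these were called under every one of the 17 alternatives that tested them. The other 99 lost the call at least once, 69 of them only where a library was left out, and none reversed its direction. With DESeq2, 21 named genes lost the call. Upper quartile scaling moved the median log2 fold change of all genes to −0.03 and gave 1134 genes higher and 1464 lower.

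With the replicate number as a block, 1247 genes were higher and 1233 lower, 302 and 127 of them by at least 1.5-fold. The same block in a fit of only the 4 libraries compared gave 1464 higher and 1415 lower, 324 and 135 of them by at least 1.5-fold. The block took the call from 4 named genes in the fit of 8 libraries and from 0 in that of 4. The numbers do not pair the samples by any label.

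When each library was left out in turn, the genes higher in Tfg1-HA against W303a numbered between 781 and 984 and the lower ones between 779 and 937, and those of at least 1.5-fold between 262 and 316 higher and between 107 and 129 lower. Against ubc9-6, Tfg1-HA then had between 638 and 853 genes higher and between 660 and 831 lower. Tfg1-K60,61R-HA against ubc9-6 had between 797 and 1465 higher and between 782 and 1380 lower. In each such fit 1 strain had a single library, which was taken to vary like the others. With 2 libraries a strain, small differences in genes of low count were not detectable at this depth.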
